A study of Mus musculus with 28 samples.

Results

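Cholesterol and fatty acid synthesis genes are described here in mouse embryonic fibroblasts (MEFs) before and during their induction to pluripotent cells. The group was chosen by gene name and holds 31 of the 50600 genes in the deposited table. All 31 were found there, all 31 passed the minimum mean of 1 that left 13230 genes for testing, and none was at 0 in any library. By role, 7 genes encode enzymes of the mevalonate and isoprenoid steps, 11 encode enzymes from squalene to cholesterol, 4 act in sterol sensing and transport, 4 in fatty acid synthesis, and 5 in fatty acid elongation and desaturation. The RNA-seq data hold 28 libraries in 14 groups of 2. All cells were wild-type by label. Per the study's methods they were primary MEFs with an Oct4-GFP reporter, from embryos of OG2 males and 129 females. The groups were untreated MEFs, MEFs treated with p38i (SB203580, an inhibitor of the p38 stress kinases), and cells on days 1, 3, 5 and 7 after retroviral delivery of Sox2, Klf4 and Oct4 in 3 conditions. In DMSO the cells received the solvent, in p38i the inhibitor was present during induction, and in pre-p38i it was given before induction. The labels of the DMSO cells name no solvent. All induced cells shared the viral factors and the iCD1 induction medium, so a difference between day 1 and MEFs cannot be told apart from the infection or from the change of medium. For the MEFs themselves the labels name iCD1 and the methods a serum medium.

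Cells make cholesterol from acetyl-CoA by way of mevalonate, farnesyl diphosphate, squalene and lanosterol, and they make fatty acids from the same precursor by carboxylation and repeated condensation. Transcription of both routes is controlled by the sterol regulatory element-binding proteins, SREBP-1 and SREBP-2, the products of Srebf1 and Srebf2. These are held in the endoplasmic reticulum by SCAP and INSIG when sterols are plentiful and are cut and released to the nucleus when sterols are scarce. SREBP-2 is known mainly for cholesterol genes and SREBP-1 mainly for fatty acid genes, and cultured fibroblasts are a classical model of this control.

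Promoter sequences were taken from RefSeq (GRCm38.p6) for the 24 of 31 genes that matched, as the 250 bases before the start. Fads1, Sqle, Scd2, Fdft1, Scd1, Fdps and Stard4 had no entry. Both strands were searched for the sterol regulatory element written as TCACNCCAC, which was in the promoter of 1 of the 24 genes, Hmgcs1 (4.17%), and of 1.28% of the 9831 tested genes with a promoter. A shorter form without the last base, TCACNCCA, which contains every match of the longer form, was searched after the first result was seen. It was in 3 of the 24 genes (12.5%), Hmgcs1, Msmo1 and Srebf2, and in 4.03% of tested genes. CCAAT was in 19 of the 24 (79.2%) against 40.9% of tested genes, and GGGCGG in 20 (83.3%) against 64.8%. The 3 promoters with the shorter form are shown because these genes take part in the movements described below, and capitals mark its 8 letters, on the gene's own strand, 5′ to 3′. The first capital lies 137 bases before the start in Hmgcs1 (chr13:119690101-119690350, plus strand), 177 in Msmo1 (chr8:64733579-64733828, minus strand) and 162 in Srebf2 (chr15:82147019-82147268, plus strand). These starts are those of RefSeq. The deposited table places the start of Msmo1 at 64733792, so most of its window, the marked letters included, lies inside the gene as listed there. It places the start of Hmgcs1 at 119690462, beyond the end of the window.
Hmgcs1: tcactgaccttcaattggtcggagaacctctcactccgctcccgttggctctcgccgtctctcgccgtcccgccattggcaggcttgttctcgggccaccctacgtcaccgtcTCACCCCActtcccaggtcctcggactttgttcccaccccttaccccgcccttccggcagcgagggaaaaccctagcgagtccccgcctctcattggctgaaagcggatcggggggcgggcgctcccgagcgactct
Msmo1: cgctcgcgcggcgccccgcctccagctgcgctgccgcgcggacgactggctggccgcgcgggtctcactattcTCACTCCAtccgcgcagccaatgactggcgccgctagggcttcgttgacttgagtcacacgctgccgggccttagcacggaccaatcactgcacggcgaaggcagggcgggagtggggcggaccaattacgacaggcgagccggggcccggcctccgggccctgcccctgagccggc
Srebf2: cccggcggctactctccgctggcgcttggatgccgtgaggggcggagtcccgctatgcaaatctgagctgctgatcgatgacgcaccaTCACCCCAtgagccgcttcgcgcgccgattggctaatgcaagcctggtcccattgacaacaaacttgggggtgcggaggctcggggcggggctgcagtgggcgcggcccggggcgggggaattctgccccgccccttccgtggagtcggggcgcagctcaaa
A match of letters is a description of the window and not a binding site. The values below show that these 3 genes did not share a course over the days.

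Each library's deposited values are whole numbers with a total from 991287 to 992537, and they are read as TPM, a transcript's share of its library after correction for length, rounded down. TPM keep no read number, so the depth is unknown and no counting interval is given. Comparisons used limma on log2(value + 1) over all 13230 tested genes, with the 28 libraries in a single model, and a gene is called higher or lower at a Benjamini-Hochberg adjusted p under 0.05. A call is said to hold in every alternative run where it was made under each other setting tried, apart from the one that also asked for a log2 difference of at least 1. A log2 difference on this scale understates the change of low values. Fibroblast markers summed to between 7614 and 7807 in untreated MEFs, and all 8 were present there. Of 7 adipocyte markers, Adipoq, Cidec, Plin1, Lep and Cfd were at 0 in all 28 libraries. Pparg was at 18 and 18 and Fabp4 at 3 and 5 in untreated MEFs. Macrophage markers summed to between 297 and 312 there. In bulk RNA, fewer cells of a type and less RNA per cell cannot be told apart.

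Lipid synthesis genes rose together on the first day of induction in DMSO. Of the 31, 29 were called higher on DMSO day 1 than in untreated MEFs and 0 lower, where 36.6% of all tested genes were called higher and 18.9% lower. The median log2 difference over the 31 was 0.98, and over all tested genes it was 0.14. Quantile normalization moved the median of all genes to -0.02 and left 28 of the 31 higher and 0 lower. The summed value of the 31 genes went from 2520 and 2505 in untreated MEFs to 5074 and 4914 on DMSO day 1, a ratio of 1.99, and 14 genes were at least 2-fold higher. Without a test that compares the list with others, these counts describe the 31 genes beside the whole table.

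All 7 genes of the mevalonate and isoprenoid steps were higher on day 1, by log2 differences between 0.44 and 1.55. Acat2, the cytosolic thiolase that joins acetyl-CoA units, was at 72 and 70 in untreated MEFs and at 164 and 163 on DMSO day 1 (log2 difference 1.19 ± 0.0508 SE, limma adjusted p = 8.89e-14). Idi1, which isomerises isopentenyl diphosphate, went from 75 and 80 to 155 and 155 (0.99 ± 0.0739, limma adjusted p = 5.83e-10). Fdps, the farnesyl diphosphate synthase, went from 265 and 271 to 521 and 520 (0.96 ± 0.0472, limma adjusted p = 9.38e-13). In each of these genes both induced libraries lay above both MEF libraries, and the replicates of a group lay close to each other. Hmgcs1, the HMG-CoA synthase, rose less, from 99 and 106 to 146 and 135 (0.45 ± 0.0892, limma adjusted p = 0.000237). The kinase gene Pmvk had the largest difference of the 7, from 26 and 28 to 86 and 76.

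All 11 genes from squalene to cholesterol were also higher on day 1. Tm7sf2, a sterol reductase, was at 3 and 7 in untreated MEFs, the lowest level of any of the 31 genes, and at 51 and 46 on DMSO day 1 (log2 difference 3.13 ± 0.201, limma adjusted p = 5.79e-11). Dhcr7, the reductase of the last step to cholesterol, went from 16 and 17 to 66 and 60 (1.87 ± 0.0699, limma adjusted p = 1.11e-14). Nsdhl, a sterol dehydrogenase, went from 36 and 34 to 121 and 124 (1.78 ± 0.0814, limma adjusted p = 2.9e-13). These 3 had the largest differences of the 11, and in each both induced libraries lay above both MEF libraries. Sqle, the squalene epoxidase that is a control point of the route, had the smallest of the 11, from 95 and 97 to 130 and 118 (0.36 ± 0.0662, limma adjusted p = 9.69e-05).

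Among fatty acid genes the desaturases of stearoyl-CoA stood out. Scd1 went from 65 and 62 in untreated MEFs to 361 and 349 on DMSO day 1 (log2 difference 2.46 ± 0.0698, limma adjusted p = 1.4e-16), and Scd2 from 365 and 353 to 966 and 914 (1.39 ± 0.0557, limma adjusted p = 3.49e-14). Elovl6, the elongase of palmitate, went from 24 and 26 to 64 and 58. Fasn, the fatty acid synthase, rose by 0.37 on the log2 scale, Acly, which makes cytosolic acetyl-CoA from citrate, by 0.64, and Me1, a malic enzyme that supplies NADPH, by 0.74. The 2 genes not called were Acaca, the acetyl-CoA carboxylase, at 34 and 30 against 29 and 30, and Fads2, a desaturase of polyunsaturated fatty acids, at 110 and 103 against 121 and 113. Of the regulators, Srebf1 went from 45 and 45 to 93 and 86 (0.98 ± 0.0658), Insig1, which retains the SREBPs in the endoplasmic reticulum, from 59 and 61 to 107 and 97 (0.75 ± 0.0803), and Srebf2 from 100 and 92 to 116 and 113 (0.25 ± 0.0713, limma adjusted p = 0.00511). Over the same comparison fibroblast markers fell from a summed mean of 7710.5 to 3909.5, with 5 of 8 called lower and 2 higher, and the adipocyte markers summed to between 21 and 23 in untreated MEFs and between 9 and 11 on DMSO day 1. Of the adipocyte markers, Pparg went from 18 and 18 to 3 and 3, while Fabp4 went from 3 and 5 to 6 and 8. The part of the fibroblast and adipocyte markers in the result was not tested.

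Most of these genes fell again by day 3. From DMSO day 1 to day 3, 24 of 31 genes were called lower and 2 higher, beside 24.0% of all tested genes lower and 20.5% higher, and 22 genes were both higher on day 1 than in MEFs and lower on day 3 than on day 1. The median log2 difference was -0.54 over the 31 and -0.01 over all tested genes. All 7 mevalonate genes and all 4 fatty acid synthesis genes fell. Acat2 went from 164 and 163 to 87 and 83, Fdps from 521 and 520 to 268 and 269, and Idi1 from 155 and 155 to 80 and 81, so that Fdps and Idi1 were back near their MEF values of 265 and 271, and 75 and 80. Nsdhl had the largest fall, from 121 and 124 to 61 and 58 (log2 difference -1.03 ± 0.0814, limma adjusted p = 3.7e-09). The 2 genes that rose were Insig1, from 107 and 97 to 120 and 123, and Srebf1, from 93 and 86 to 110 and 107. Scd1, Tm7sf2, Fdft1, Ebp and Srebf2 were not called. Fdft1 encodes squalene synthase and Ebp a sterol isomerase, and on day 3 they stood at 123 and 117, and at 76 and 90, against 113 and 120, and 72 and 78, on day 1. Over this step 5 of 9 macrophage markers were higher and 0 lower (summed means 254.5 to 432.5), 4 of 5 epithelial markers were higher and 0 lower (20 to 64.5), and 3 of 8 fibroblast markers were higher and 5 lower (3909.5 to 3722.5). Their part was not tested.

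**Figure D1:**
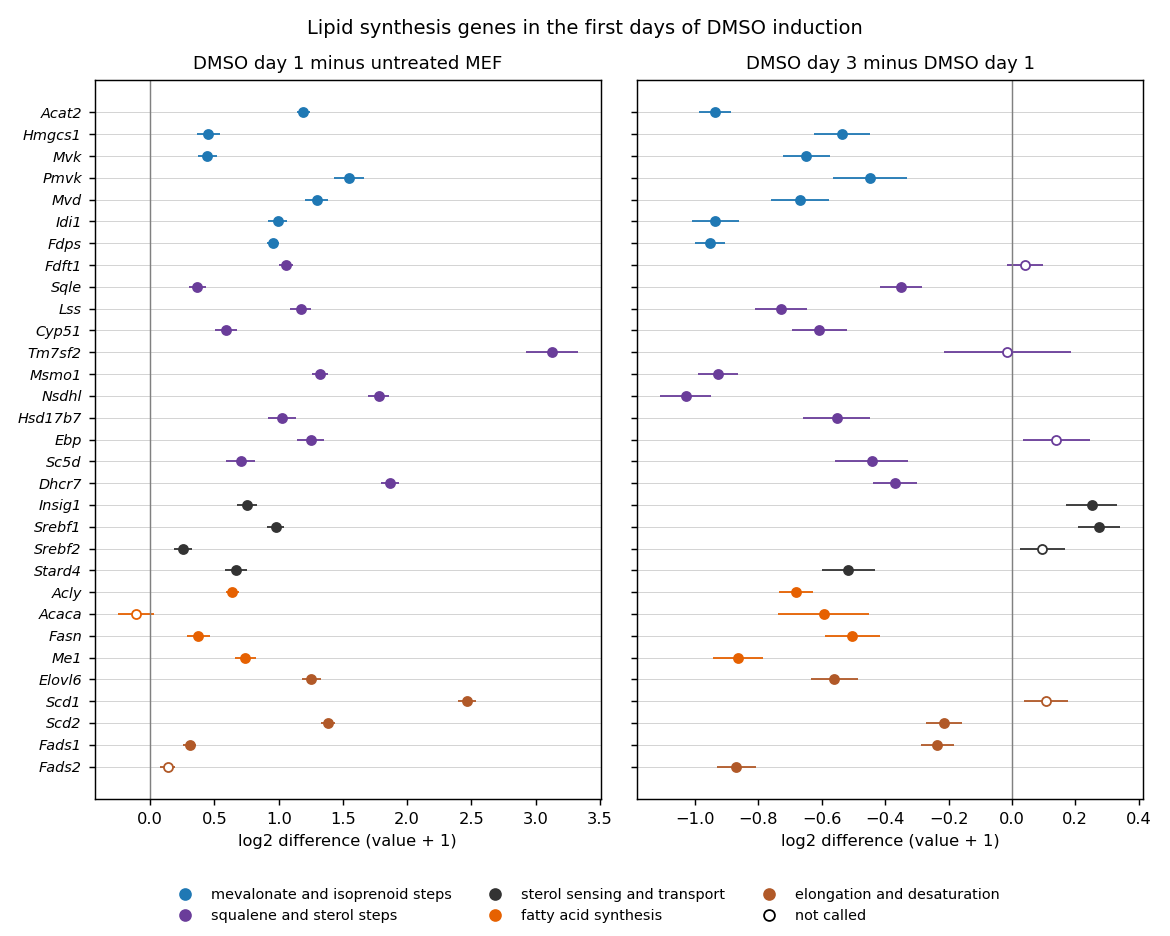
Log2 differences on the value + 1 scale for each of the 31 genes, DMSO day 1 minus untreated MEF (left panel) and DMSO day 3 minus DMSO day 1 (right panel). Points are limma estimates coloured by role, bars are standard errors, and open points were not called. On the left 29 points are called above 0, and on the right 24 are called below 0.

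Changes in DMSO after day 3 were smaller. From day 3 to day 5, 11 genes were called higher and 0 lower, beside 13.8% and 5.57% of all tested genes. A fit of the groups compared alone called 0, and the count was 7 without the first DMSO day 3 library and 5 without the second DMSO day 5 library. Insig1 had the largest difference, from 120 and 123 to 167 and 194 (log2 difference 0.56 ± 0.0803, limma adjusted p = 5.57e-05), and Srebf1 went from 110 and 107 to 137 and 155. From day 5 to day 7, 2 genes were called higher and 4 lower, beside 10.3% and 16.4% of all tested genes. Me1 had the largest fall, from 98 and 99 to 72 and 75 (-0.42 ± 0.0796, limma adjusted p = 0.000645), and it was the single gene of the 6 that was called in every alternative run. Without the second DMSO day 5 library, or the first DMSO day 7 library, the count was 3. On DMSO day 7 the group means of 26 of the 31 genes were above those of untreated MEFs, and the summed value was 4044 and 4106, against 2520 and 2505 in MEFs. The summed value of the fatty acid synthesis genes was 388 and 405 on day 7 and 441 and 439 in MEFs. In sum the fatty acid synthesis genes thus ended below their MEF level, while the elongation and desaturation genes ended at 1576 and 1582 against 681 and 656. Among the fatty acid synthesis genes Me1, at 72 and 75 against 102 and 106, Fasn and Acaca ended below MEFs. Acly ended above, at 165 and 172 against 157 and 153. DMSO day 7 was not tested against MEFs.

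Among MEFs that had not been induced, p38i-treated cells differed from untreated ones in 9 of these genes. Of the 31, 7 were called higher and 2 lower in p38i-treated than in untreated MEFs, beside 9.73% and 8.15% of all tested genes, and the median log2 difference was 0.03. Acat2 was at 87 and 85 against 72 and 70 (log2 difference 0.27 ± 0.0508, limma adjusted p = 0.000733), and it was the single gene called in every alternative run. Tm7sf2 was at 11 and 10 against 3 and 7, Dhcr7 at 22 and 21 against 16 and 17, and Scd2 at 446 and 422 against 365 and 353. Fdps, at 235 and 243 against 265 and 271, and Stard4, a sterol carrier, at 24 and 25 against 29 and 32, were lower. Summed over all 31 genes the values were 2614 and 2539 against 2520 and 2505. Without the first p38i-treated library the count of calls was 5 in place of 9. Fibroblast markers were lower with p38i in 5 of 8 and higher in 1 (summed means 4506 against 7710.5), and macrophage markers were lower in 5 of 9 (211.5 against 304.5). Their part was not tested.

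During induction, p38i was accompanied by higher values of most lipid synthesis genes on days 1 and 3. On day 1, 21 of 31 genes were called higher in p38i than in DMSO and 0 lower, beside 3.47% and 12.6% of all tested genes. On day 3, 22 were higher and 0 lower, beside 5.22% and 16.2%. The median log2 differences of the 31 were 0.43 and 0.45, where all tested genes had -0.08 on both days. Quantile normalization gave 22 higher and 0 lower on day 1, and 25 and 0 on day 3, with the median of all genes moved to 0.03 on day 3. Summed over the 31 genes, day 1 gave 6595 and 6845 in p38i against 5074 and 4914 in DMSO, and 18 of the 31 genes had their highest group mean of the whole series in p38i on day 1. Of the calls, 11 of 21 on day 1 and 15 of 22 on day 3 were made in every alternative run.

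On the mevalonate steps, 5 of 7 genes were higher on day 1 and 6 of 7 on day 3. Acat2 was at 276 and 289 in p38i against 164 and 163 in DMSO on day 1 (log2 difference 0.78 ± 0.0508, limma adjusted p = 2.88e-09), and at 151 and 163 against 87 and 83 on day 3 (0.88 ± 0.0508, limma adjusted p = 4.07e-10). Fdps was at 716 and 741 against 521 and 520 on day 1, and at 384 and 406 against 268 and 269 on day 3. Both genes thus fell from day 1 to day 3 in both conditions and stayed higher in p38i. Mvd, the mevalonate diphosphate decarboxylase, was at 131 and 133 against 77 and 80 on day 1 (0.74 ± 0.092, limma adjusted p = 1.28e-05), but it overlaps the gene model Gm20388, which was at 0 and 0 in p38i and at 24 and 20 in DMSO. The sums of both models were 131 and 133 against 101 and 100, still without overlap, and their log2 difference was 0.39. Hmgcs1 did not share the day 1 difference, with 151 and 151 in p38i against 146 and 135 in DMSO (0.10 ± 0.0892, limma adjusted p = 0.487), and Pmvk was called on neither day.

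On the sterol steps, 8 of 11 genes were higher on each of the 2 days. Lss, the lanosterol synthase, was at 107 and 112 in p38i against 63 and 61 in DMSO on day 1 (log2 difference 0.81 ± 0.0824, limma adjusted p = 1.15e-06), and at 62 and 63 against 37 and 37 on day 3. Msmo1, a methylsterol oxidase, was at 434 and 443 against 324 and 310 on day 1, and Nsdhl at 181 and 189 against 121 and 124. In these genes the p38i values of day 3 were again below those of day 1, at 249 and 256 for Msmo1 and 99 and 103 for Nsdhl. Dhcr7 differed from them in that its p38i values did not fall, going from 99 and 101 to 103 and 104, against 66 and 60, then 48 and 49, in DMSO. Its day 3 difference of 1.08 ± 0.0699 on the log2 scale (limma adjusted p = 1.59e-09) was the largest p38i difference of any of the 31 genes on any day. Among other matches, Dhcr7 shares a stretch of 98.2% identity over 226 bases with Gm48764, listed at up to 115. Part of their reads may thus be shared. Sc5d, a sterol desaturase, was called on no day.

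On the fatty acid steps, Fasn was at 300 and 286 in p38i against 196 and 191 in DMSO on day 1 (log2 difference 0.60 ± 0.0867, limma adjusted p = 7.32e-05), and Acly at 351 and 351 against 248 and 236 (0.54 ± 0.0523, limma adjusted p = 6.74e-07). Me1 was at 176 and 172 against 172 and 177, and was called on no day. Of the elongation and desaturation genes, 4 of 5 were higher on day 1 and 5 of 5 on day 3. Scd2 was at 1286 and 1351 against 966 and 914 on day 1 and at 1290 and 1299 against 836 and 784 on day 3, and Scd1 at 570 and 580 against 406 and 360 on day 3. Of the 4 sterol sensing and transport genes, Insig1 was called, at 181 and 186 against 107 and 97 on day 1 (0.84 ± 0.0803, limma adjusted p = 4.89e-07) and at 207 and 208 against 120 and 123 on day 3. Srebf1 was at 78 and 80 against 93 and 86 on day 1 (-0.18 ± 0.0658, limma adjusted p = 0.076), and Srebf2 at 107 and 114 against 116 and 113. On day 3 Srebf1 was at 126 and 118 against 110 and 107, and Srebf2 at 128 and 115 against 125 and 120. Neither SREBP gene was called on day 1 or day 3. The part of the SREBPs in the p38i differences was not tested.

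**Figure D2:**
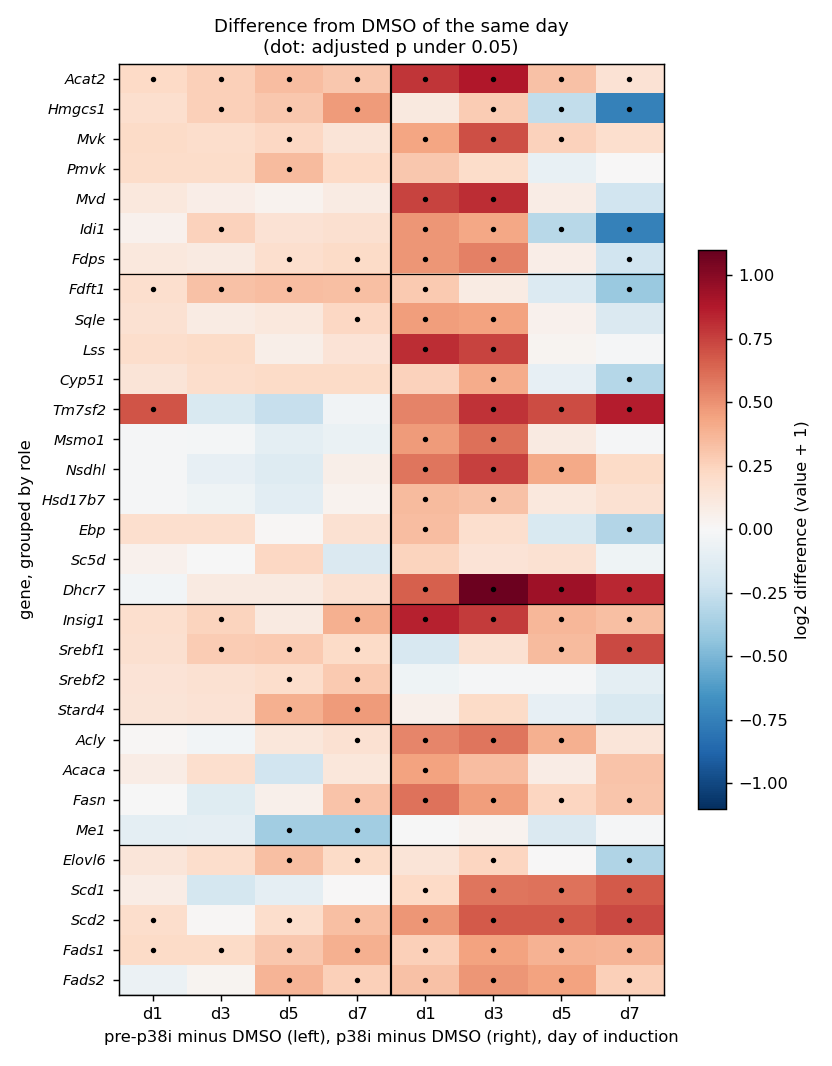
Log2 differences from DMSO of the same day for the 31 genes (rows, grouped by role), for pre-p38i (left 4 columns) and p38i (right 4 columns) on days 1, 3, 5 and 7. Red is higher and blue lower than DMSO, and dots mark calls. In p38i 21 and 22 genes are called higher on days 1 and 3, and 7 lower on day 7, among them Hmgcs1 and Idi1.

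On days 5 and 7 the genes no longer moved together. On day 5, 13 of 31 were called higher in p38i and 2 lower, beside 7.87% and 18.7% of all tested genes, and quantile normalization gave 13 and 1 with the median of all genes moved from -0.08 to 0.03. On day 7, 10 were higher and 7 lower, beside 16.5% and 17.6%, and the median log2 difference of the 31 was 0.00. The 7 lower genes were Hmgcs1, Idi1, Fdps, Fdft1, Cyp51, Ebp and Elovl6, each of which had been called higher on day 1 or day 3. The 8 genes called higher on all 4 days were Acat2, Dhcr7, Insig1, Fasn, Scd1, Scd2, Fads1 and Fads2. Of the calls, 2 of 15 on day 5, Dhcr7 and Scd2, and 9 of 17 on day 7, among them Hmgcs1, Idi1, Fdft1, Srebf1 and Scd1, were made in every alternative run.

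On day 7 the lowest differences from DMSO were those of the mevalonate genes Hmgcs1 and Idi1. Over the 4 days Hmgcs1 was at 151 and 151, 118 and 117, 105 and 103, and 77 and 79 in p38i, while DMSO gave 146 and 135, 96 and 97, 115 and 137, and 133 and 129. The p38i values fell at each step and on day 7 lay below those of every other library of the series, the MEFs included. Its day 7 difference was -0.74 ± 0.0892 on the log2 scale (limma adjusted p = 2.94e-06). Idi1 was at 207 and 228, 107 and 110, 73 and 84, and 59 and 64 in p38i over the 4 days, against 155 and 155, 80 and 81, 95 and 99, and 100 and 107 in DMSO. It was thus above DMSO on days 1 and 3 and below it on days 5 and 7, where its difference was -0.74 ± 0.0739 on day 7 (limma adjusted p = 2.95e-07). Idi1 has a near-identical copy, Gm13502, listed at no more than 8 in any library. Fdps ended at 243 and 225 in p38i against 266 and 276, Fdft1 at 89 and 89 against 116 and 121, and Cyp51, the lanosterol demethylase, at 71 and 69 against 85 and 89. Summed over the 7 mevalonate genes, p38i gave 1678 and 1778 on day 1 and 647 and 638 on day 7, next to 636 and 645 in untreated MEFs. The sum also fell between these days in the other conditions. It went from 1235 and 1215 to 745 and 782 in DMSO, and from 1352 and 1352 to 949 and 875 in pre-p38i.

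The genes higher on day 7 included the 4 fatty acid desaturase genes and 2 genes of sterol reduction. Scd1 was at 400 and 429, 570 and 580, 660 and 630, and 639 and 686 in p38i over the 4 days, against 361 and 349, 406 and 360, 399 and 457, and 412 and 416 in DMSO (day 7 log2 difference 0.68 ± 0.0698, limma adjusted p = 4.59e-07). Scd2 was at 1444 and 1536 on day 7 against 893 and 902 (0.73 ± 0.0557, limma adjusted p = 8.96e-09). Scd1 and Scd2 share a stretch of 95.5% identity over 623 bases, so part of their reads may be shared between them. Dhcr7 was at 119 and 123 on day 7 against 66 and 69 (0.83 ± 0.0699, limma adjusted p = 3.23e-08), and Tm7sf2 at 62 and 63 against 31 and 37 (0.86 ± 0.201, limma adjusted p = 0.00234). The latter shares 532 bases with Vps51, which lay between 27 and 50 in all libraries. Srebf1 was the gene that turned the other way, from 78 and 80 on day 1 to 126 and 118, 192 and 180, and 235 and 267 in p38i, against 93 and 86, 110 and 107, 137 and 155, and 156 and 146 in DMSO. Its day 7 difference was 0.73 ± 0.0658 (limma adjusted p = 8.81e-08), whereas Srebf2 was at 123 and 121 against 137 and 126 and was called on no day.

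**Figure D3:**
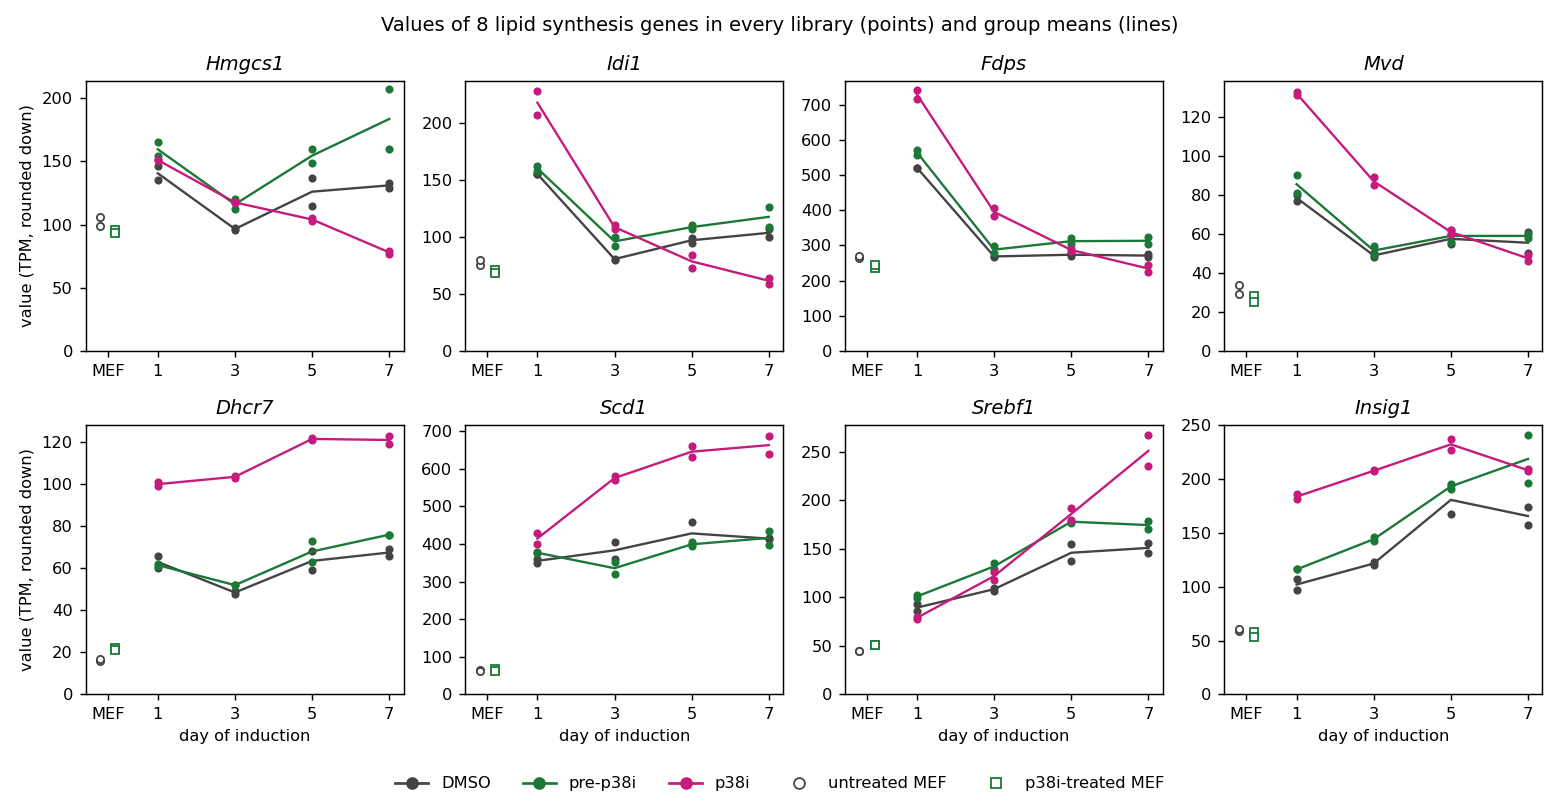
Values (TPM, rounded down, vertical axes from 0) of 8 genes in every library against day of induction, with untreated and p38i-treated MEFs at the left. Points are libraries and lines join the group means of DMSO, pre-p38i and p38i. Hmgcs1 and Idi1 end at 77 and 79, and 59 and 64, in p38i on day 7, under DMSO, while Dhcr7, Scd1 and Srebf1 end above it.

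The change of the p38i difference between day 1 and day 7 was tested directly, as the day 7 difference minus the day 1 difference. It was called lower for 15 of 31 genes and higher for 3, beside 7.55% and 14.1% of all tested genes, and its median was -0.29 over the 31 and 0.09 over all tested genes. Idi1 had the largest fall of the difference (-1.23 ± 0.104, limma adjusted p = 1.33e-07), and Hmgcs1 (-0.84 ± 0.126, limma adjusted p = 8.96e-05) and Lss (-0.83 ± 0.117, limma adjusted p = 4.84e-05) also fell in this sense. Mvd had -0.96 ± 0.13 (limma adjusted p = 3.3e-05), but summed with the overlapping Gm20388, a step added after the data were seen, its change was -0.37, with no test. Of the mevalonate genes 5 of 7 fell in this sense, of the sterol genes 7 of 11, and of the fatty acid synthesis genes 1 of 4, Acly. The 3 that rose were Srebf1 (0.90 ± 0.093, limma adjusted p = 1.46e-06), Scd1 (0.45 ± 0.0987, limma adjusted p = 0.00261) and Scd2 (0.24 ± 0.0787, limma adjusted p = 0.0334). Of these 18 calls 16 were made in every alternative run with a test, the others being Nsdhl and Scd2.

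**Figure D4:**
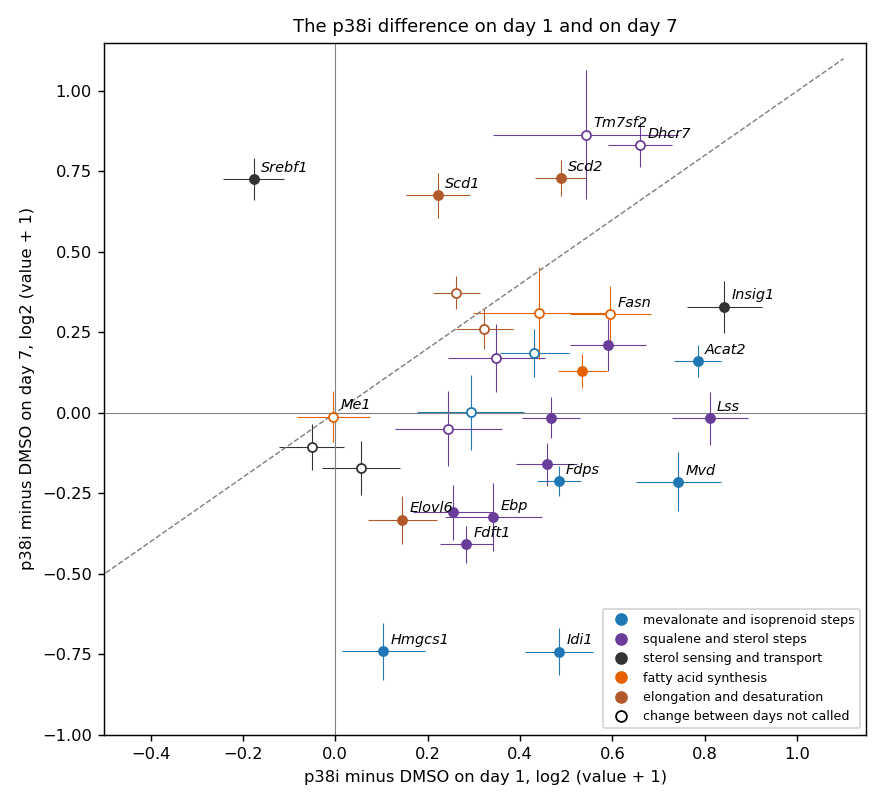
The p38i minus DMSO log2 difference on day 1 (horizontal) and on day 7 (vertical) for each of the 31 genes, with standard errors as bars and the dashed line marking equal differences. Filled points are genes whose change between the days was called. Filled points below the line are 15 genes such as Idi1, Hmgcs1 and Lss, and those above it are Srebf1, Scd1 and Scd2.

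Other cell markers moved with p38i. Epithelial markers, which rise as induced cells advance, summed to between 197 and 214 in p38i on day 7 and between 434 and 453 in DMSO, with 5 of 5 called lower. Pluripotent markers summed to between 8 and 10 against between 73 and 82, with 4 of the 4 tested genes lower. The list holds 6 genes. Nanog was at 0 in 19 of the 28 libraries, and Esrrb and Dppa5a were at 0 in 23. Nanog, Esrrb and Dppa5a reached the required mean largely through DMSO and pre-p38i on day 7, so the count of calls is not separate from the filter. Of 8 fibroblast markers, 6 were lower and 0 higher on day 1 (summed means 2622 in p38i against 3909.5), while day 7 had 1 lower and 2 higher (1505.5 against 1456). On day 3, 7 of 8 were lower and 0 higher (1939 against 3722.5), and on day 5, 6 were lower and 1 higher (1698 against 2386). Of 9 macrophage markers, 2, 6, 7 and 5 were lower on the 4 days and 1, 0, 1 and 1 higher. Their summed means were 193 in p38i against 254.5 in DMSO on day 1, 253.5 against 432.5 on day 3, 222 against 428.5 on day 5 and 208.5 against 214.5 on day 7. In all p38i groups the adipocyte markers summed to no more than 13. Of these, Pparg and Fabp4 were present, at no more than 5 and 8 in p38i, and the other 5 were at 0. The part of other cell types in the p38i differences was not tested.

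Because epithelial and pluripotent markers in p38i on day 7 lay nearer to those of DMSO day 5, the 31 genes were also set against DMSO day 5. Of them 8 were called higher and 10 lower, beside 8.40% and 15.2% of all tested genes, and quantile normalization gave 10 higher and 7 lower, so that the balance between the directions depends on the scaling. Hmgcs1 was at 77 and 79 against 115 and 137 on DMSO day 5, and Idi1 at 59 and 64 against 95 and 99. Dhcr7, at 119 and 123 against 59 and 68, and Scd2, at 1444 and 1536 against 852 and 937, were higher in this comparison as well. Epithelial markers summed to between 131 and 139, and pluripotent markers to 15 in each library, on DMSO day 5. Fibroblast and macrophage markers in p38i on day 7 had summed means of 1505.5 and 208.5. They lay nearer to DMSO day 7 (1456 and 214.5) than to DMSO day 5 (2386 and 428.5). The marker lists thus do not agree on a matching day.

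Fewer genes were called in pre-p38i on days 1 and 3 than in p38i, and the median difference changed little over the days. Compared with DMSO, 5 of 31 genes were called higher and 0 lower in pre-p38i on day 1, beside 5.40% and 6.24% of all tested genes. On day 3 the counts were 7 and 0, beside 13.8% and 6.87%, and quantile normalization gave 4 and 1. On day 5, 13 were higher and 1 lower, beside 14.3% and 11.3%, and on day 7, 15 and 1, beside 15.4% and 14.5%. The median log2 differences were 0.14, 0.16, 0.16 and 0.21 on the 4 days. Tm7sf2 had the largest single difference, 0.69 on day 1, where it was called higher at 73 and 85 against 51 and 46. On day 7 it was at 36 and 30 against 31 and 37. Its change between these days, -0.73, was the largest fall of the 31 genes but was not called. A fit of the groups compared alone gave 0, 1, 3 and 9 calls on the 4 days, and 0, 1, 3 and 7 calls were made in every alternative run. These counts moved with single libraries. Without 1 library at a time the day 1 count lay between 0, without the second pre-p38i library, and 3, and it was 1 or 2 without either DMSO library. On day 3 it was 3 without the first pre-p38i library and 4 without the first DMSO library, and on day 5 it was 9 without the first library of either group.

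Acat2, Fdft1 and Fads1 were called higher in pre-p38i on all 4 days. Fdft1 was at 136 and 129, 157 and 144, 155 and 156, and 151 and 147 on days 1, 3, 5 and 7, against 113 and 120, 123 and 117, 119 and 126, and 116 and 121 in DMSO (day 7 log2 difference 0.33 ± 0.057, limma adjusted p = 0.000209). Fads1, a desaturase of polyunsaturated fatty acids, was at 179 and 170 on day 7 against 134 and 131 (0.39 ± 0.0507, limma adjusted p = 6.88e-06). Both libraries of pre-p38i lay above both of DMSO in these comparisons. Fads2, on the same route, was at 109 and 115 against 121 and 113 on day 1 and at 101 and 96 against 83 and 81 on day 7. Hmgcs1 was at 207 and 160 on day 7 against 133 and 129 (0.47 ± 0.0892, limma adjusted p = 0.000478), with 1 pre-p38i library well above the other. All 4 sterol sensing and transport genes were higher on day 7. Stard4 was at 63 and 58 against 45 and 42 (0.47 ± 0.0845, limma adjusted p = 0.000311), Insig1 at 241 and 196 against 174 and 157, Srebf1 at 179 and 170 against 156 and 146, and Srebf2 at 164 and 157 against 137 and 126. Me1 was the single gene called lower, at 77 and 74 against 98 and 99 on day 5 and at 56 and 56 against 72 and 75 on day 7 (-0.39 ± 0.0796, limma adjusted p = 0.00106). Its value of 56 in each library was the lowest of the series for this gene. Of the 11 sterol genes, 2 were called on day 7, Fdft1 and Sqle, and Dhcr7 at 76 and 76 against 66 and 69 was not (0.17 ± 0.0699, limma adjusted p = 0.0758).

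The change of the pre-p38i difference from day 1 to day 7 was called for 1 gene, Fads2 (log2 difference 0.32 ± 0.087, limma adjusted p = 0.0144), higher, and for 0 lower, beside 7.25% and 9.43% of all tested genes. Quantile normalization gave 1 higher and 2 lower, and the call of Fads2 was not made in every alternative. The comparison of pre-p38i day 5 with the later DMSO day 7 gave 11 higher and 0 lower of 31, beside 9.96% and 4.36%. There Fdft1 was at 155 and 156 against 116 and 121 (0.39 ± 0.057, limma adjusted p = 0.000125), and it and Fads1 were called in every alternative run. Without any of the 4 libraries in turn the count was between 5 and 7. Markers moved with pre-p38i too. On day 7, 8 of 8 fibroblast markers were lower (summed means 841.5 against 1456), 9 of 9 macrophage markers were lower (41.5 against 214.5), and 5 of 5 epithelial markers were higher (862 against 443.5). On day 5 the epithelial sum was between 315 and 332. Their part in the differences was not tested, and the adipocyte markers summed to no more than 5 in any pre-p38i library.

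Set against each other on day 7, p38i and pre-p38i differed in 18 of 31 genes, with 6 higher in p38i and 12 lower, beside 24.8% and 29.5% of all tested genes. As shares of the 31 these are 19.4% and 38.7%, under and over the shares of all tested genes, of which many also differed here. Hmgcs1 had the largest difference, at 77 and 79 in p38i against 207 and 160 in pre-p38i (log2 difference -1.21 ± 0.0892, limma adjusted p = 9.37e-10), and Idi1 followed at 59 and 64 against 126 and 109 (-0.92 ± 0.0739, limma adjusted p = 3.19e-09). Fdft1, at 89 and 89 against 151 and 147, Stard4, at 38 and 39 against 63 and 58, and Srebf2, at 123 and 121 against 164 and 157, were lower too. The 6 higher genes were Tm7sf2, Dhcr7, Srebf1, Me1, Scd1 and Scd2. Scd1 was at 639 and 686 against 435 and 397, and Me1 at 69 and 77 against 56 and 56. The p38i and pre-p38i comparisons with DMSO share the DMSO libraries, and the values above are each condition's own.

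Across all 28 libraries, correlations followed the 2 courses seen in p38i only in part, and they are given as a description. Pearson correlations of log2(value + 1) with Fdps were 0.95 for Msmo1, 0.94 for Acat2 and 0.93 for Idi1, while Dhcr7 had 0.30 and Scd1 0.23 with it. With Scd1 they were 0.95 for Dhcr7, 0.95 for Scd2, 0.91 for Insig1 and 0.91 for Tm7sf2, and 0.25 for Idi1. Other genes did not follow this split. Ebp and Fdft1, called lower in p38i on day 7, had 0.91 and 0.78 with Scd1, and 0.25 and 0.43 with Fdps. Fads2 and Fasn, like Acat2 called higher in p38i on all 4 days, had -0.22 and 0.20 with Scd1. With Fdps these 2 genes had 0.59 and 0.82. Hmgcs1 had 0.60 with Fdps and 0.22 with Scd1. Over all 465 pairs of the 31 genes the median was 0.60 and 426 were above 0. The libraries share groups and totals, so these correlations are not independent evidence.

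**Figure D5:**
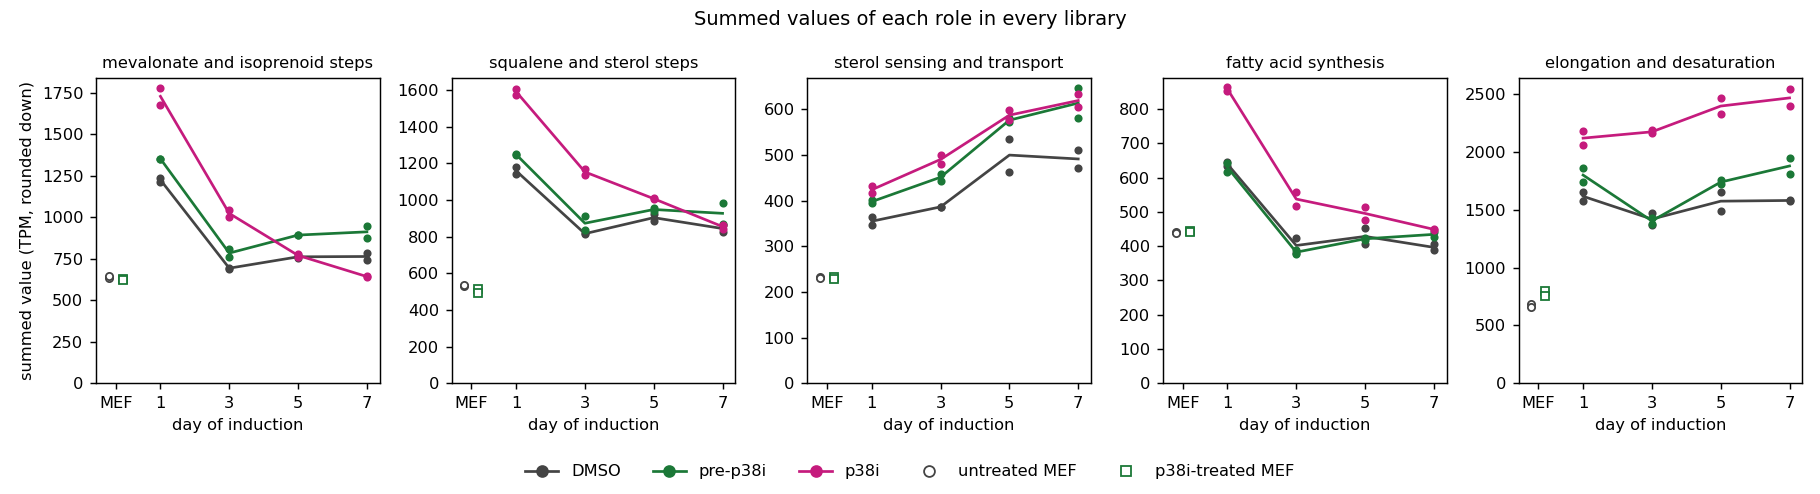
Summed values (TPM, rounded down, vertical axes from 0) of the genes of each role in every library against day of induction, with MEFs at the left. Points are libraries and lines join group means. The mevalonate sum in p38i runs from 1678 and 1778 on day 1 to 647 and 638 on day 7, while the elongation and desaturation sum is between 2060 and 2539. In DMSO the mevalonate sum falls too, from 1235 and 1215 to 745 and 782.

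By role, the sums over the days set the p38i courses apart. The mevalonate genes gave 1003 and 1043 on day 3 and 761 and 779 on day 5 in p38i, and DMSO gave 695 and 691, and 753 and 770. The groups overlapped on day 5, and on day 7 p38i, at 647 and 638, lay below the 745 and 782 of DMSO. The sterol genes ended at 844 and 866 in p38i against 823 and 866 in DMSO on day 7, also overlapping. The elongation and desaturation genes were at 2060 and 2175, 2160 and 2184, 2460 and 2329, and 2391 and 2539 in p38i, above the 1652 and 1578, 1467 and 1369, 1492 and 1654, and 1576 and 1582 of DMSO on every day. Most of the mean sum of 2465 in p38i on day 7 was Scd2 and Scd1, with group means of 1490 and 662.5. Elovl6, of the same role, was lower in p38i on day 7, at 39 and 45 against 54 and 52. In pre-p38i the sterol sensing and transport genes summed on day 7 to 647 and 581 against 512 and 471.

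Other genes of lipid metabolism were taken from lists drawn up for this work. Beside their counts, 36.6% of all tested genes were called higher and 18.9% lower on DMSO day 1 against MEFs, and 3.47% and 12.6% in p38i against DMSO on day 1. Of 13 other sterol and isoprenoid genes tested, 7 were higher and 4 lower on DMSO day 1 than in MEFs, and the day 1 comparison of p38i with DMSO had 2 higher and 1 lower. Aacs, which makes acetoacetyl-CoA from acetoacetate, was higher in both comparisons, by 0.85 and 0.31 on the log2 scale. Of 17 other fatty acid and glycerolipid genes tested, 12 were higher and 0 lower on DMSO day 1, led by Acss2, the cytosolic acetyl-CoA synthetase (log2 difference 3.20 ± 0.164, limma adjusted p = 1.79e-12), and the day 1 comparison of p38i with DMSO had 4 higher and 0 lower, again led by Acss2 (0.78, limma adjusted p = 0.00254). Of 15 genes of sterol uptake, efflux and storage, 11 were higher and 2 lower on DMSO day 1, led by Abca1, the cholesterol exporter (5.49 ± 0.0787), and the p38i comparison over the 4 days had 2, 4, 3 and 5 higher and 3, 2, 3 and 0 lower. For its days 3, 5 and 7, 5.22%, 7.87% and 16.5% of all tested genes were higher, and 16.2%, 18.7% and 17.6% lower. Abcg1, another exporter listed at no more than 7, had a lower day 1 level under p38i (-1.29 ± 0.371, limma adjusted p = 0.0214). In pre-p38i on day 7 this list had 1 gene higher and 3 lower, beside 15.4% and 14.5% of all tested genes, among them Abca1 (-0.87, limma adjusted p = 7.87e-08). Among the genes that process SREBPs, 5 of 9 were higher on DMSO day 1 than in MEFs, led by Scap (0.66, limma adjusted p = 2.91e-06).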

How the data were processed

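RNA-seq of poly(A) RNA was measured in 28 libraries of mouse fibroblasts and induced cells, in 14 groups of 2 taken from the labels. The deposited values are whole numbers per gene, recorded here as a score and read as TPM that the authors rounded down, from their near-equal totals per library. The submitters' processing notes name bcl2fastq, Bowtie2 2.2.5 and RSEM 1.3.0 and the builds mm10 and hg38, whose roles, with the strand setting, are not given in the sources used here. TPM keep no depth, so small values carry an unknown counting error and rounding adds to it. No column of values was left unmapped.

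The 31 genes and the related lists were chosen with earlier results of these data known. The 13230 of 50600 genes whose mean value reached 1 were tested as log2(value + 1) with limma 3.58.1 in R 4.3.3, with a mean-variance trend and all 14 groups in 1 model (14 residual degrees of freedom). Adjusted p-values are Benjamini-Hochberg values over all tested genes within a comparison, with a threshold of 0.05. The test was checked on simulated data. All 31 genes were described, and of each related list at most 2 genes with the largest called difference in a comparison were named. The labels do not say that replicates came from separate cultures, so p-values measure the spread between these samples, which may be technical. Labels and methods differ on the library kit and the RNA extraction. Alternatives were leaving low genes in, raising the required mean to 5, a pseudocount of 0.1, a log2 difference of at least 1, quantile normalization, the groups compared alone, a replicate block and leaving out each library. Promoters came from RefSeq, and near-identical transcripts were searched with BLAST 2.17.0+. Python 3.11.15 with pandas 2.3.3 and matplotlib 3.10.9 made the summaries and figures.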

Additional observations from a re-analysis of the deposited data

Results flagged for a closer look

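The p38i difference from DMSO on day 7 minus that on day 1 was called by limma for 18 of the 31 genes, each listed here because the effect differed between the days. On the log2 scale it was -0.62 for Acat2, -0.84 for Hmgcs1, -0.96 for Mvd, -1.23 for Idi1 and -0.70 for Fdps among the mevalonate genes. Among the sterol genes it was -0.69 for Fdft1, -0.62 for Sqle, -0.83 for Lss, -0.56 for Cyp51, -0.48 for Msmo1, -0.38 for Nsdhl and -0.67 for Ebp. Insig1 had -0.51, Acly -0.40 and Elovl6 -0.48. Higher on day 7 than on day 1 were the differences of Srebf1 (0.90), Scd1 (0.45) and Scd2 (0.24). For pre-p38i the same comparison called Fads2 (0.32). Mvd overlaps the gene model Gm20388, and summed with it the change was -0.37, with no test. The differences on each day share the DMSO libraries of that day with the pre-p38i comparison. Groups of 2 libraries were too small to look for single outlying libraries.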

How the results depend on the processing

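Of 264 called values among the 558 gene and comparison pairs, 135 were called in every alternative apart from the minimum size, and none changed direction. Depth is unknown, so how far it limits low genes such as Tm7sf2 could not be set. Requiring a log2 difference of at least 1 left 14 genes on DMSO day 1, 1 each for p38i-treated MEFs, DMSO day 3 against day 1, p38i day 3, p38i against pre-p38i and the p38i change from day 1 to day 7, and 0 in the other comparisons. Fitting only the groups compared gave 2 for p38i-treated MEFs, 0 and 2 for the later DMSO steps, 0, 1, 3 and 9 for pre-p38i on days 1, 3, 5 and 7, 11 and 3 for p38i on days 1 and 5, 2 for the pre-p38i change, 6 for p38i day 7 against DMSO day 5 and 2 for pre-p38i day 5 against DMSO day 7. Quantile normalization gave 6 for DMSO day 5 against day 3, 3 for the pre-p38i change and 7 for pre-p38i day 5 against DMSO day 7. The causes were not tested, except that fewer samples entered the fits of the groups compared alone.

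The replicate numbers gave no sign of paired samples, with correlations of same-numbered deviations between -0.0838 and 0.0874 over 91 pairs of groups. Each deviation rests on 2 rounded values per gene, so low correlations cannot settle whether same-numbered libraries shared a culture. With the replicate block the count was 3 in place of 5 for pre-p38i day 1 and 2 in place of 1 for the pre-p38i change, 29 for DMSO day 1, 19 and 18 for p38i on days 1 and 7, and within 1.5 times of the main count elsewhere.

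Leaving out a library at a time, where the remaining library of a group is assumed to vary like the other groups, gave between 5 and 9 calls for p38i-treated MEFs, 28 and 29, 23 and 26, 5 and 12, and 3 and 4 for the DMSO steps in order, 0 and 3, 3 and 6, 9 and 14, and 12 and 18 for pre-p38i by day, and 17 and 19, 19 and 20, 10 and 13, and 14 and 15 for p38i by day. It gave 17 to 20 for p38i against pre-p38i, 0 to 3 for the pre-p38i change, 16 to 18 for the p38i change, 13 to 17 for p38i day 7 against DMSO day 5 and 5 to 7 for pre-p38i day 5 against DMSO day 7. The pre-p38i change had 0 calls without the first DMSO day 1, second DMSO day 7, first pre-p38i day 1 or first pre-p38i day 7 library, and 3 without the second pre-p38i day 7 library.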
